A study of Mus musculus with 6 samples.

Results

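The genes described here encode the T cell receptor complex and the proteins that carry its first signals, from the receptor chains to the kinases, adaptors, phosphatases and transcription factors. They were taken by gene symbol from a list of 33, and 32 of them had a row on the array, out of 19494 genes tested. Lck was not analysed here. The study measured sorted regulatory T cells (Tregs), which restrain immune responses, from the lamina propria of tumour-bearing mouse colon. The mice all carried the Foxp3-RFP and GPR15-GFP reporters and had colorectal cancer induced with the carcinogen azoxymethane followed by dextran sulfate sodium, an agent that damages the colon lining. Cells stained for CD4 and positive for RFP, which marks Foxp3 expression, were split by GFP into a fraction labelled GPR15+ and a fraction labelled GPR15-. GPR15 is a chemoattractant receptor by which T cells home to the large intestine. Each fraction had 3 arrays, with the sample numbers 1, 5 and 6 in both. Mouse age is not given in the labels, nor whether a number stands for 1 mouse or a pool.

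The T cell receptor itself has no enzyme. Its CD3 chains and the zeta chain carry tyrosines that Src-family kinases phosphorylate once a peptide on MHC is bound, and ZAP-70 docks there and phosphorylates the scaffolds LAT and SLP-76. Phospholipase C-gamma, Vav1 and Ras exchange factors then gather on these scaffolds and open the calcium, cytoskeletal, Ras and NF-kB branches, while Csk and several phosphatases hold the system back. Tregs need receptor signals for their development and for their suppressive function.

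The Gpr15 row lay lower in the samples labelled GPR15+ (8.12 ± 0.23, SD, n = 3) than in those labelled GPR15- (8.78 ± 0.31, SD, n = 3), on the log2 scale on which all levels are given. The fractions did not overlap, and Gpr15 was lower by -0.28, -1.26 and -0.43 at the numbers 1, 5 and 6 (limma unadjusted p = 0.0172, adjusted p = 0.773). Directions therefore rest on the labels alone, and a positive difference means a higher value in the arrays labelled GPR15+. Whether the reporter allele still makes the transcript that this probe set reads was not tested. The T cell markers Cd3e, Cd3d, Cd3g and Cd4 lay at or above the 93.3 percentile of mean level. Of the Treg markers, Ctla4, Ikzf2, Tnfrsf18 and Tnfrsf4 lay at or above the 94.9 percentile, while Il2ra, the interleukin-2 receptor alpha chain, lay at the 20.0 percentile. Of 6 listed Treg markers these 5 were measured, and Foxp3 was not analysed here. Of the 5, Ctla4 lay above 0 (0.38 ± 0.29, SE) and 4 below, with a median of -0.22. Ikzf2, which encodes the transcription factor Helios, lay lower at every number without overlap, by -0.52 ± 0.19 (SE; limma unadjusted p = 0.0254, adjusted p = 0.773), and its part in the members' differences was not tested. Probe sets differ in brightness per RNA molecule, so percentiles compare signals and not RNA amounts. The 3 arrays of a fraction limit the precision of every value, and in bulk samples fewer cells of a type and less RNA per cell cannot be told apart.

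No member passed after Benjamini-Hochberg adjustment over all genes (limma, smallest adjusted p among the members 0.773), and 0% of all genes did. The members nevertheless lay mostly on the same side, with 28 of 32 differences above 0 and 4 below, where 40.8% of all genes lay above 0. Their median difference was 0.23 log2 units, against -0.06 over all genes, and the range over members ran from -0.14 for Cd3g to 0.79 for Themis. By sample number the median over members was 0.15, 0.33 and 0.19 for the numbers 1, 5 and 6. Over all genes it was -0.03, -0.08 and -0.06. Of the members, 17 lay above 0 at every number and 1, Cd5, below 0 at every number. Among all genes, 13.4% lay above 0 at every number and 23.6% below.

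**Figure D1:**
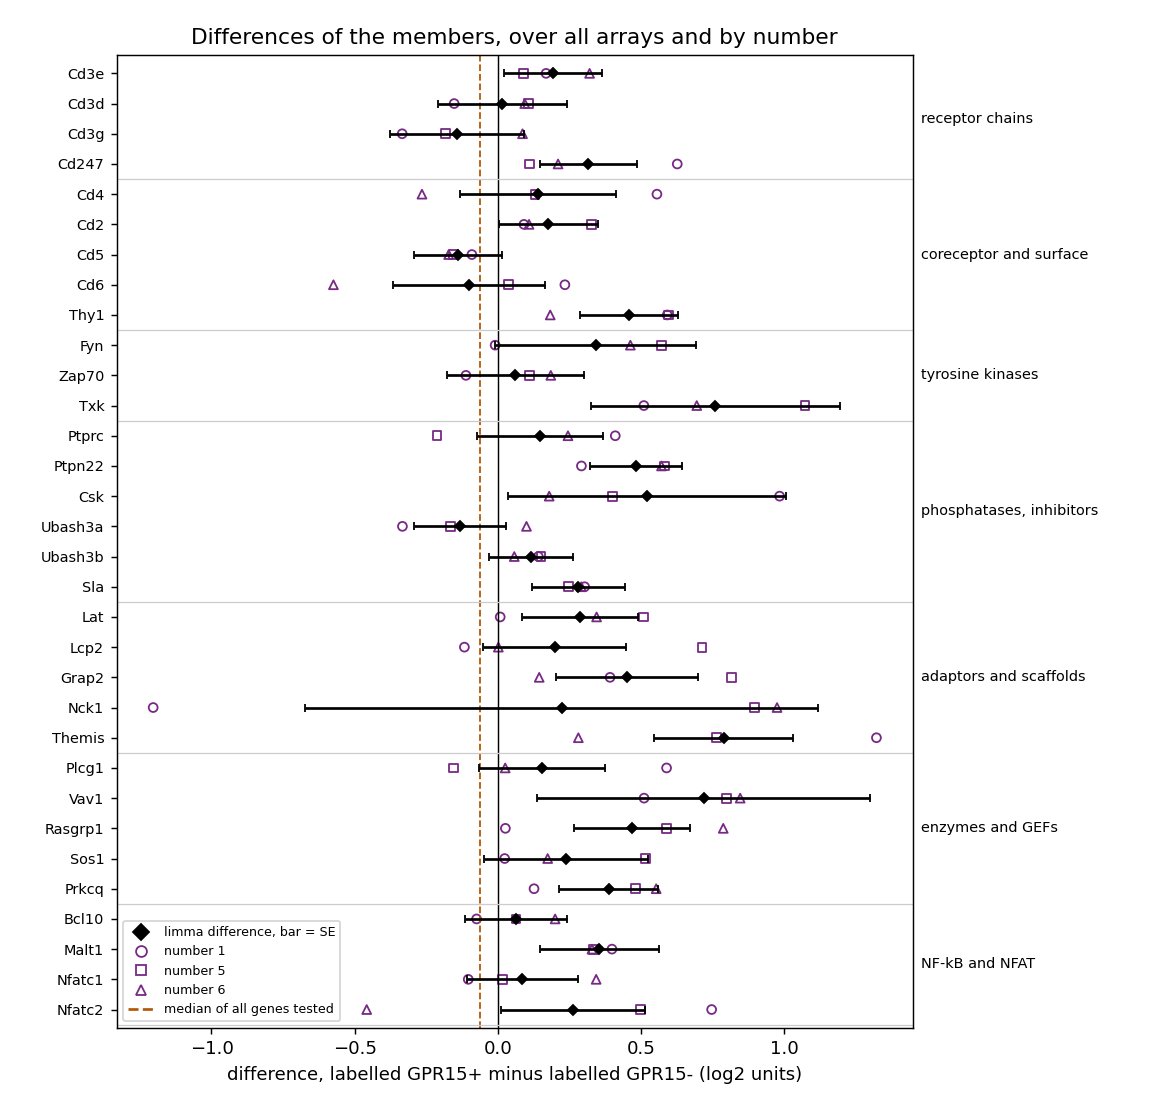
Difference between the arrays labelled GPR15+ and GPR15- for each of the 32 members, in log2 units, grouped by role. Diamonds are limma differences with standard errors, open symbols are the differences within the numbers 1, 5 and 6, and the dashed line is the median of all genes (-0.06); 28 of the diamonds lie above 0.

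At an unadjusted p under 0.05, limma without a block had 3 members higher (Themis, Ptpn22 and Thy1) and 0 lower. The background was 2.79% of all genes higher and 3.44% lower, or 6.23% in all. With arrays centred on their medians the background turned from 544 genes higher and 670 lower to 777 and 397 (6.02% in all), and 6 members were higher and 0 lower. The sample number as a block raised the members at this level to 9 higher and 0 lower, against 6.14% of all genes higher and 12.4% in either direction, and again 0 passed after adjustment (smallest adjusted p among the members 0.269). The 9 were Themis, Ptpn22, Thy1, Txk, Vav1, Csk, Grap2, Rasgrp1 and Malt1. In 9 members the 3 arrays of one fraction all lay beyond the 3 of the other, 8 of them higher and 1 (Cd5) lower. Among all genes 4.12% were higher and 9.17% lower without overlap, or 13.3% in all.

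The members were bright genes: all 32 lay above the median level of the array, and 26 above the 80 percentile. The difference between fractions varied with level over all genes. Its median was -0.13 for genes at 5 to 6 log2 units, 0.10 at 9 to 10, and 0.02 at 11 or more, the bin with the most members (9). At number 1 the bins at 9 to 10, 10 to 11 and 11 or more had medians of -0.05, -0.08 and -0.14. At number 5 they had 0.20, 0.14 and 0.12, and at number 6 0.16, 0.12 and 0.08. Of the 32 members, 26 lay above the median difference of the genes in their own level bin. With the trend on level removed from each array, 27 of 32 members lay above 0, where 50% of all genes did, and their median was 0.20. In that setting 9 members did not overlap, against 12% of all genes, with Cd2, Lat and Grap2 in place of Cd247, Cd5 and Sla. It had 3 members at an unadjusted p under 0.05, all higher, with Rasgrp1 in place of Thy1, against 5.84% of all genes (728 higher and 410 lower).

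**Figure D2:**
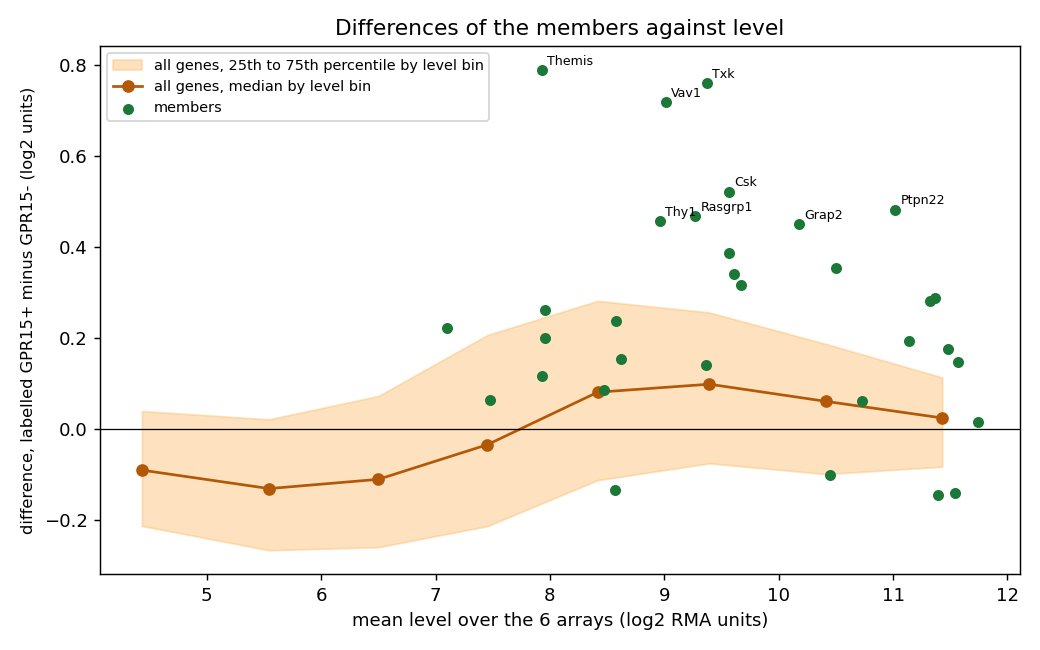
Difference (labelled GPR15+ minus labelled GPR15-, log2 units) against mean level over the 6 arrays (log2 RMA units). Green points are the 32 members, and the line and band are the median and the 25th to 75th percentiles of all genes by level bin; 26 members lie above the median of their bin.

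The receptor chains were among the brightest genes of the array, and the CD3 chains differed little. Cd3e, whose chain pairs with both other CD3 chains, differed by 0.19 ± 0.17 (SE). Cd3d lay at 11.36, 11.84 and 12.05 in the arrays labelled GPR15+ with the numbers 1, 5 and 6, and at 11.52, 11.73 and 11.96 in those labelled GPR15-. Its difference was 0.02 ± 0.23 (SE), and in both fractions number 1 was the lowest and number 6 the highest. Cd3g lay at 10.89, 11.42 and 11.65 against 11.22, 11.60 and 11.56, with a difference of -0.14 ± 0.23 (SE), and was the only receptor chain below 0. Cd247, which encodes the zeta chain with the most phosphorylation motifs of the complex, lay at 9.97, 9.69 and 9.83 against 9.34, 9.58 and 9.62. Its fractions did not overlap, and the difference of 0.32 ± 0.17 (SE) was 0.63 at number 1 and 0.11 and 0.21 at the numbers 5 and 6 (limma adjusted p = 0.773).

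Among the coreceptor and surface proteins, Thy1 had the largest difference and Cd5 and Cd6 lay below 0. Thy1, a lipid-anchored glycoprotein found on mouse T cells, lay at 9.34, 9.16 and 9.07 in the arrays labelled GPR15+ and at 8.75, 8.56 and 8.89 in those labelled GPR15-. The fractions did not overlap, and the difference was 0.46 ± 0.17 (SE), or 1.37-fold (limma adjusted p = 0.773). Cd5, a surface protein that dampens receptor signalling, lay at 11.48, 11.41 and 11.54 against 11.57, 11.56 and 11.71. All 3 arrays labelled GPR15+ lay below the other 3, yet the difference of -0.14 ± 0.15 (SE) was smaller than its standard error. Cd6, its close relative, differed by -0.10 ± 0.27 (SE), from 0.23 at number 1 to -0.57 at number 6. Cd4, the coreceptor that binds MHC class II, differed by 0.56 at number 1 and by -0.27 at number 6. Its difference over all arrays, 0.14 ± 0.27 (SE), turned to -0.07 without both arrays numbered 1. The adhesion receptor Cd2 differed by 0.18 ± 0.17 (SE).

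Of the tyrosine kinases, Txk had the largest difference. Txk, a Tec-family kinase that acts on phospholipase C-gamma, lay at 8.84, 10.36 and 10.06 in the arrays labelled GPR15+ and at 8.33, 9.28 and 9.36 in those labelled GPR15-. Both arrays numbered 1 were the lowest of their fraction, so the fractions overlapped although every number differed upward, by 0.51, 1.07 and 0.69. The difference of 0.76 ± 0.44 (SE) became 0.43 when the array labelled GPR15- with number 1 was left out and 1.22 when its GPR15+ counterpart was. It had an unadjusted p of 0.120 from limma without a block and of 0.00290 with the number as a block (adjusted p = 0.270; 0.101 to 1.00 over all alternatives). Fyn, a Src-family kinase that phosphorylates the receptor chains, lay at 9.03, 10.34 and 9.97 against 9.04, 9.77 and 9.51. It differed by -0.01 at number 1 and lay higher at 5 and 6, by 0.57 and 0.46. Zap70, the kinase that docks on the phosphorylated chains, differed by 0.06 ± 0.24 (SE), and quantile normalization turned it to -0.0038.

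Of the phosphatases and inhibitory regulators, 5 lay above 0 and 1, Ubash3a, below. Ptpn22, a phosphatase that acts on active Src-family kinases and ZAP-70, lay at 11.07, 11.36 and 11.36 in the arrays labelled GPR15+ and at 10.78, 10.77 and 10.79 in those labelled GPR15-. The spread within the second fraction was only 0.0083 (SD, n = 3), and the difference was 0.48 ± 0.16 (SE), or 1.40-fold (limma adjusted p = 0.773). Csk, the kinase that places the inhibitory phosphate on Src-family kinases and binds PTPN22, lay at 9.20, 10.37 and 9.90 against 8.22, 9.97 and 9.72. Its difference of 0.52 ± 0.48 (SE) was 0.98 at number 1 and 0.40 and 0.18 at 5 and 6, and it was -0.02 without GPR15- replicate 1. Sla, an adaptor that promotes loss of receptor chains, lay at 11.45, 11.58 and 11.36 against 11.14, 11.33 and 11.07, and differed by 0.30, 0.25 and 0.29 at the 3 numbers. The fractions of Sla did not overlap, and its limma adjusted p was 0.773. Ptprc, which encodes the phosphatase CD45 that removes the inhibitory phosphate, differed by 0.15 ± 0.22 (SE), with -0.21 at number 5. Of the related phosphatases that bind ubiquitin, Ubash3a differed by -0.13 ± 0.16 (SE). Ubash3b differed by 0.12 ± 0.15 (SE) without overlap of the fractions, whose SDs were 0.027 and 0.041 (n = 3 each).

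**Figure D3:**
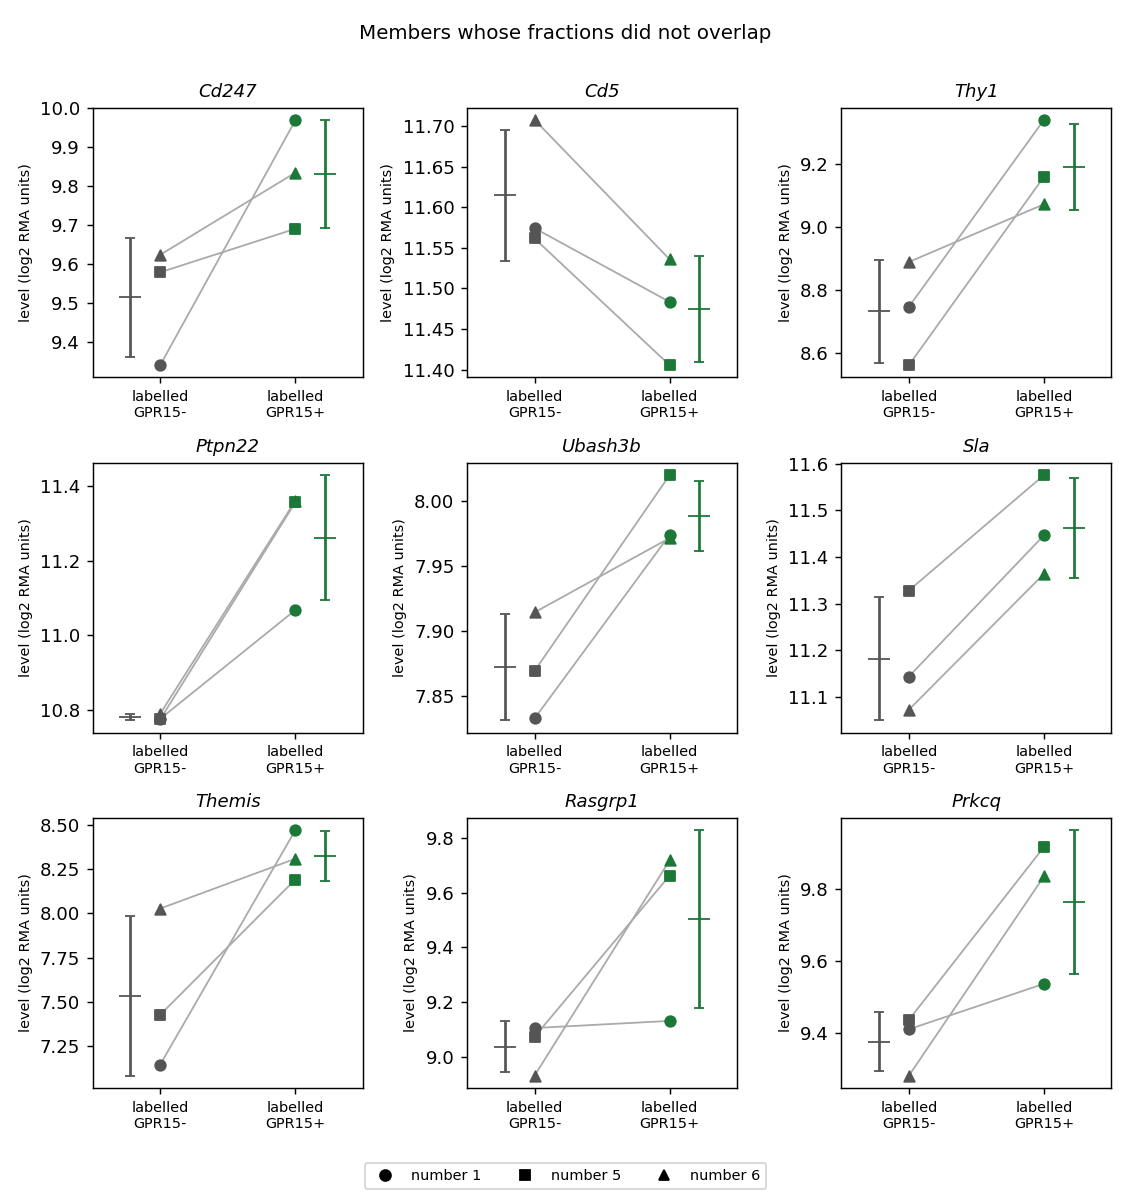
Levels (log2 RMA units; each panel has its own scale, which does not start at 0) of the 9 members whose fractions did not overlap. Points are arrays, grey lines join equal sample numbers and bars are mean ± SD of 3 arrays; Cd5 lies lower and the other 8 higher in the arrays labelled GPR15+. With the level trend removed, Cd247, Cd5 and Sla overlap.

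Adaptors all lay above 0. Themis, a T cell lineage protein that binds GRB2 and tunes receptor signals, had the largest difference of all members. It lay at 8.47, 8.19 and 8.31 in the arrays labelled GPR15+ and at 7.15, 7.43 and 8.03 in those labelled GPR15-. The difference was 0.79 ± 0.24 (SE), or 1.73-fold, without overlap, and was 1.32, 0.76 and 0.28 at the numbers 1, 5 and 6 (limma adjusted p = 0.773). Its unadjusted p from limma was 0.0124, and 0.0506 without both arrays numbered 1. Grap2, which encodes GADS, the bridge between LAT and SLP-76, lay at 10.03, 10.78 and 10.40 against 9.63, 9.96 and 10.25. It differed by 0.45 ± 0.25 (SE) and upward at every number. Lat and Lcp2, which encode the scaffolds LAT and SLP-76, differed by 0.29 ± 0.20 (SE) and 0.20 ± 0.25 (SE). Lcp2 lay higher at number 5 (0.71), with -0.12 and 0.0015 at numbers 1 and 6. Nck1, an adaptor to the actin cytoskeleton, was the most variable member, at 4.92, 8.48 and 8.22 against 6.12, 7.59 and 7.25. It differed by -1.20 at number 1 and by 0.90 and 0.97 at 5 and 6, and by 0.22 ± 0.89 (SE) over all arrays.

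The enzymes and exchange factors also all lay above 0. Vav1, an exchange factor for Rac, lay at 8.17, 9.90 and 10.05 in the arrays labelled GPR15+ and at 7.66, 9.10 and 9.21 in those labelled GPR15-. At equal number it was higher by 0.51, 0.80 and 0.85, and the fractions overlapped because both arrays numbered 1 lay far below the rest. The difference of 0.72 ± 0.58 (SE) became 0.22 when the array labelled GPR15- with number 1 was dropped and 1.32 when the GPR15+ one was. The unadjusted p from limma was 0.252 without a block and 0.00251 with it (adjusted p = 0.269; 0.101 to 1.00 over all alternatives). Rasgrp1, the Ras exchange factor that diacylglycerol recruits, lay at 9.13, 9.66 and 9.72 against 9.11, 9.07 and 8.93. It differed by 0.03 at number 1 and by 0.59 and 0.79 at the numbers 5 and 6. Prkcq, which encodes protein kinase C-theta, likewise diacylglycerol-dependent, lay at 9.54, 9.92 and 9.83 against 9.41, 9.44 and 9.28. It differed by 0.13, 0.48 and 0.55, and neither it nor Rasgrp1 overlapped between fractions. Sos1, the Ras exchange factor that GRB2 brings to LAT, differed by 0.24 ± 0.29 (SE). Plcg1, the phospholipase that makes diacylglycerol and releases calcium, differed by 0.15 ± 0.22 (SE), and by -0.07 without both arrays numbered 1.

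Downstream, Malt1, a protease that acts together with BCL10 to activate NF-kB, lay at 10.99, 10.51 and 10.53 in the arrays labelled GPR15+ and at 10.59, 10.17 and 10.20 in those labelled GPR15-. It differed by 0.40, 0.33 and 0.33, a near constant step on levels that were highest at number 1 (limma unadjusted p = 0.129, and 0.0498 with the block). Its partner Bcl10 differed by 0.06 ± 0.18 (SE). The calcium-regulated transcription factors Nfatc1 and Nfatc2 differed by 0.09 ± 0.19 (SE) and 0.26 ± 0.25 (SE), and Nfatc2 went from 0.75 at number 1 to -0.46 at number 6.

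**Figure D4:**
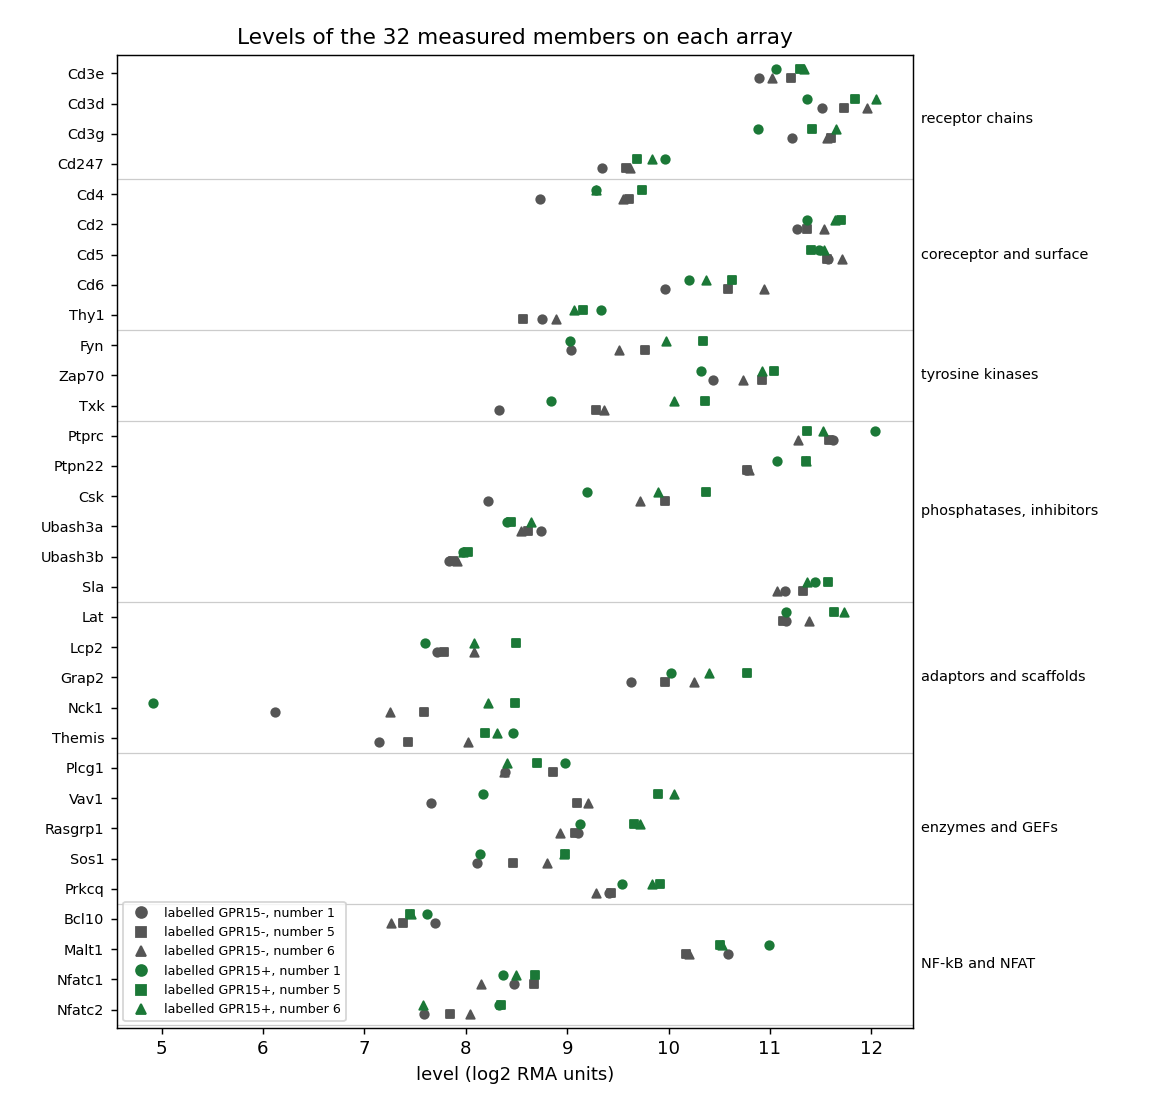
Level of each member on each array (log2 RMA units), with the arrays labelled GPR15+ in green and those labelled GPR15- in grey, drawn slightly apart, and symbols for the sample number. Nck1, Vav1, Csk and Txk spread the most, with both arrays numbered 1 lowest.

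Levels were also compared across the sample numbers. In a limma fit with number and fraction as terms, 1 of 32 members, Vav1, passed the F test of the number after adjustment over all genes, against 1.82% of all genes. At an unadjusted p under 0.05 the F test had 7 members, against 19.8% of all genes. Both shares were near those of all genes. At number 1 Vav1 averaged 7.91, against 9.50 and 9.63 at 5 and 6, which made it 3.14-fold lower at number 1 than at the mean of the others (limma adjusted p = 0.0244). The adjusted p was 0.0188 to 0.0678 over the alternatives, the last without the fraction as a term, where Vav1 did not pass and Nck1 did, with 1.37% of all genes. Without the 40% dimmest genes, and with a variance trend, Txk and Csk passed as well, against 3.48% and 2.28% of all genes. They averaged 8.58 and 8.71 at number 1, against 9.82 and 10.17 at number 5 and 9.71 and 9.81 at number 6. In 21 of 32 members the number 1 had the lowest mean, against 33.4% of all genes, and in 4, among them Ptprc and Malt1, the highest. Among 55 further pathway genes, described below, number 1 was lowest in 39 and highest in 10. The members were not compared here with genes of their own level. The arrays numbered 1 had the narrowest spread over all rows (SD 1.63 in both, against 1.74 to 1.87 on the other 4). The part of this spread in the levels by number was not tested. With the level trend removed, Vav1 had a limma adjusted p of 0.0406, and 0.785% of all genes passed.

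**Figure D5:**
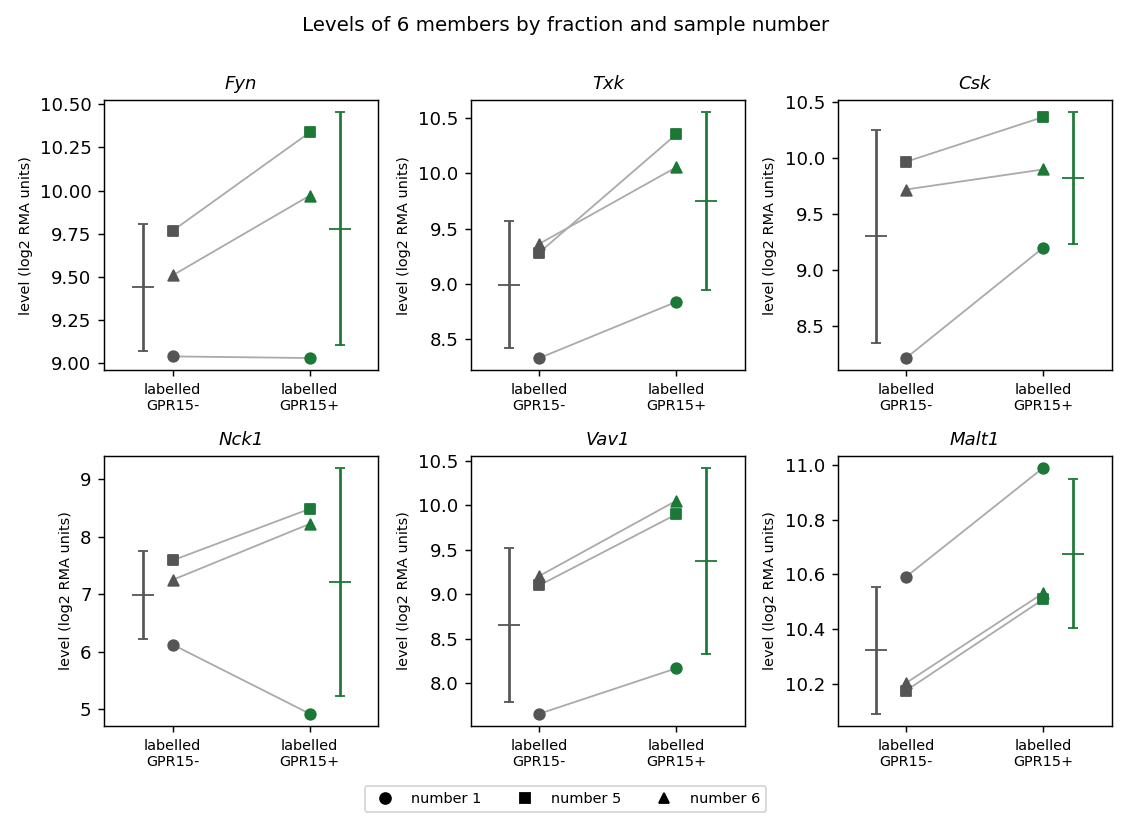
Levels (log2 RMA units; each panel has its own scale, which does not start at 0) of 6 members, chosen after their values were seen, with grey lines joining equal sample numbers and bars showing mean ± SD of 3 arrays. Vav1, Csk, Txk, Nck1 and Fyn lie lowest at number 1 in both fractions and Malt1 highest; at number 1 Nck1 is lower, not higher, in the array labelled GPR15+.

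The pattern of members across fractions was also taken without the arrays numbered 1. Without both arrays numbered 1, 20 members were higher and 1 lower without overlap, against 21.4% of all genes higher and 56% in either direction with 2 arrays a fraction. At an unadjusted p under 0.05, 9 were higher and 0 lower (Fyn, Txk, Ptpn22, Lat, Grap2, Nck1, Vav1, Rasgrp1 and Prkcq). Of all 19494 genes 1870 were higher and 2231 lower, or 21% in either direction. Without GPR15+ replicate 1 alone 11 members were higher and 0 lower, against 1860 of all genes higher and 2491 lower (22.3% in either direction). In that setting 19 members did not overlap, against 47.8% of all genes. Without GPR15- replicate 5 or GPR15+ replicate 5, 1 member was left (Themis), against 4.23% and 3.43% of all genes in either direction. After adjustment 0 members passed in any of these settings. The members' median was 0.13 when GPR15- replicate 1 was left out, 0.14 when GPR15+ replicate 5 was, 0.14 with quantile normalization, and 0.24 without both arrays numbered 1.

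Further genes of the pathway came from a list of 66. Of these, 55 had a row, of which 39 lay above 0 and 16 below, with a median of 0.12. Among all genes 40.8% lay above 0. By sample number the median of these genes was -0.01, 0.20 and 0.04 at 1, 5 and 6, with 26, 36 and 33 above 0. At every number 13 lay above 0 and 10 below, against 13.4% and 23.6% of all genes. None passed after adjustment over all genes. By limma 0 had an unadjusted p under 0.05, against 6.23% of all genes. With the number as a block it had 4, all higher, a share near the 6.14% of all genes that were higher. These were the small GTPase Nras (0.69 ± 0.42, SE), its inactivators Rasa1 (0.64 ± 0.38, SE) and Rasal3 (0.37 ± 0.28, SE), and Grb2, the first 3 named after their values were seen. The SEs printed are those without a block, and with it they were 0.19, 0.23 and 0.16 for Nras, Rasa1 and Rasal3. The fractions did not overlap in 2 genes, against 13.3% of all genes, also named after their values were seen and both below 0, the calcium channel Orai1 (-0.21 ± 0.16, SE) and the CD45-associated protein gene Ptprcap (-0.19 ± 0.16, SE). The adaptor Grb2 differed by 0.49 ± 0.27 (SE), the adaptor Skap1 by 0.35 ± 0.27 (SE) and the diacylglycerol kinase Dgka, which opposes Rasgrp1, by 0.26 ± 0.19 (SE). The ubiquitin ligase Cblb differed by 0.22 ± 0.30 (SE), the T cell-specific adaptor Sh2d2a by 0.19 ± 0.26 (SE) and Nfatc3 by 0.23 ± 0.42 (SE). The costimulatory receptor Cd28 differed by -0.20 ± 0.26 (SE) and Trat1, an adaptor that stabilises the receptor complex, by -0.21 ± 0.27 (SE). Tec, of the same kinase family as Txk, and the phosphatase Ptpn6 differed by 0.06 ± 0.30 (SE) and 0.08 ± 0.21 (SE). One of these genes passed the test of the number, Dock2, an exchange factor for Rac as Vav1 is, at 8.08 and 8.56 in the arrays numbered 1 and 10.20 to 10.68 in the others (limma adjusted p = 0.0277). In the same fit 1.82% of all genes passed.

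Of 43 measured markers of other cells, 30 lay at or below the median level, and Kit (97.5 percentile), Col1a1 (85.6 percentile) and Pecam1 (82.6 percentile) were the brightest. Above 0 lay 8 and below it 35, where 40.8% of all genes lay above. Dim genes lay lower as a class, with medians over all genes of -0.13 at 5 to 6 log2 units and -0.11 at 6 to 7. These markers were not compared with genes of their own level. At an unadjusted p under 0.05 limma had 5 lower and 0 higher, against 6.23% of all genes in either direction, and with the number as a block 8 lower and 1 higher, against 12.4%. The summed level of 5 B and plasma cell markers, 0 of them above the median level, was 8.45 to 8.63 in the arrays labelled GPR15- and 7.97 to 8.18 in those labelled GPR15+, without overlap. That of 8 epithelial markers, 4 above the median level, was 9.95 to 10.04 against 9.59 to 10.01. Macrophage and monocyte markers summed to 8.99 to 9.28 against 8.62 to 9.19 over 7 genes, 1 above the median level, and dendritic markers to 9.11 to 9.27 against 8.70 to 9.20 over 5 genes, 2 above it. The 7 CD8 T and NK markers, 2 above it, ranged from 8.99 to 9.19 against 8.93 to 9.24. The 4 mast cell markers, none above it, ranged from 7.06 to 7.26 against 6.95 to 7.23, and the 6 stromal markers, 3 above it, from 9.81 to 10.04 against 9.88 to 10.02. Of the γδ T and innate lymphoid list only Kit, the receptor for stem cell factor, had a row. It lay at 8.53, 10.43 and 10.42 in the arrays labelled GPR15+ with the numbers 1, 5 and 6, and at 9.65, 11.74 and 11.58 in those labelled GPR15-. It was lower at every number (-1.12, -1.30 and -1.16), and its difference of -1.19 ± 0.68 (SE) was larger in size than that of any member. Its unadjusted p from limma was 0.117 without a block and 8.4e-05 with it (adjusted p = 0.176). No marker is at 0 on an RMA scale, and the part of these cells in the members' differences was not tested.

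Promoter windows are shown for Themis and Ptpn22, the members with an unadjusted p under 0.05 that had one. RefSeq windows (GRCm38.p6) were found for 25 of the 32 members, and the first listed for each gene was cut to the 250 bases before its start. Capitals mark GGAAG (the core that ETS factors read), TGTGGT (RUNX) and GGAAA (NFAT) on either strand, where GGAAG and GGAAA share their first 4 letters. The Themis window lies at chr10:28668110-28668359 on the plus strand and that of Ptpn22 at chr3:103859545-103859794 on the plus strand.
Themis: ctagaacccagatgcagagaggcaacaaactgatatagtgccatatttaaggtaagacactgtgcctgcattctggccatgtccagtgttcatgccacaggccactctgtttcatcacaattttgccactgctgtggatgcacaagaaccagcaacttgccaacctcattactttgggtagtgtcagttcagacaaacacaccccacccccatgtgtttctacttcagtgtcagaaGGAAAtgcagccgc
Ptpn22: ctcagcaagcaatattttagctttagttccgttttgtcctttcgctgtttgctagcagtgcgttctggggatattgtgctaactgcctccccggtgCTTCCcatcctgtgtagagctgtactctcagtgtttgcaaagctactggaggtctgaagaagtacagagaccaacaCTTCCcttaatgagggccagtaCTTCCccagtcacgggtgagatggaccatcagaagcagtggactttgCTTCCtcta
The Themis window holds 1 match of GGAAA and that of Ptpn22 4 of GGAAG. Over the 25 member windows 68% held GGAAG, 4% TGTGGT and 68% GGAAA, against 63.6%, 14.2% and 55.6% of 27025 gene windows of the same length. A match is a description of the letters and not a bound site.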

How the data were processed

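RNA of sorted cells was labelled with biotin from a few nanograms and read on 1-colour Affymetrix arrays. The authors deposited log2 values, 1 per probe set, made with RMA per the submitters' processing notes (background correction, normalization between arrays and summarisation); the sources used here give no version, genome build or detection call.

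The table held 22142 rows, 19527 with 1 gene symbol in the platform annotation, 0 with several and 2615 with none, which were not used. For 33 genes with several rows the one with the highest mean was taken, which left 19494 genes; no member had several. Fractions were compared without a block by lmFit and eBayes of limma (version 3.58.1, R version 4.3.3). P-values were adjusted over all genes by Benjamini-Hochberg and called under 0.05. Unless stated, SE is the moderated standard error of the fit without a block. An exact permutation test of 3 against 3 cannot go below 0.1 (2-sided), so none was used. The scripts were tested on simulated data.

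Members and lists were chosen with earlier results of these data known, and support nothing by their choice. All members are named; values on every array are given for those at an unadjusted p under 0.05, without overlap or with the largest difference of their role group, and for others chosen after their values were seen. Some pathway genes were named whatever their values, as was any that passed. Deviations from fraction means correlated at 0.567, 0.381 and 0.319 between samples numbered 1, 5 and 6, each over 0.1. The numbers 5 and 6 also correlated crosswise (0.315 and 0.213, likewise over 0.1). This check therefore sets number 1 apart but cannot show that 5 and 6 pair the samples. Equal numbers were set against each other in the differences by number and in the fit with the block, and the main fit took no pairs. The labels do not say what a number stands for, and p-values cover the variation among these arrays alone. Alternatives covered the block, scaling, the level trend, filters, weights and left-out arrays.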

Additional observations from a re-analysis of the deposited data

How the results depend on the processing

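No member passed after adjustment under any alternative, and the lowest adjusted p of a member was 0.100. Of all genes, 2 passed with array weights (Ndrg3 and Pde3b) and 0 under the others. At an unadjusted p under 0.05, limma had 1214 genes, and 2411 with the replicate block, 713 without the 40% dimmest genes, 4390 with array weights, 4101 without both arrays numbered 1 and 668 to 4351 with 1 array left out. For the members the count was 3, and 9 with the replicate block, 6 with arrays centred, 9 with array weights, 9 without both arrays numbered 1 and 1 to 11 with 1 array left out. Members without overlap numbered 9, against 13.3% of all genes. They were fewer with quantile normalization, where the share of all genes was not counted. They numbered 21 without both arrays numbered 1, against 56% of all genes. Without GPR15+ replicate 1 they numbered 19, against 47.8% of all genes. For the other single arrays left out the share of all genes was not counted, so no count is given.

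The median over all genes was -0.06, and 0.0066 with arrays centred, -0.021 with quantile normalization, 6.0e-05 with the level trend removed, -0.016 without the dimmest genes and -0.11 to -0.044 with 1 array left out. The members' median was 0.13 to 0.30 with 1 array left out. Less the median of all genes it was 0.29, and 0.16 with quantile normalization and 0.18 to 0.39 with 1 array left out. The test of the number gave 3 members without the dimmest genes and 3 with a variance trend in place of 1, and over all genes 149 with quantile normalization, 153 with the level trend removed and 184 with array weights in place of 354.

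Of 480 member values under alternatives, 453 kept their direction and 27 reversed, and 19 members kept theirs throughout. Quantile normalization turned Zap70 (-0.0038) and Nfatc1 (-0.035), and removing the level trend Cd3d (-0.0026). Array weights turned Plcg1 (-0.038), Nfatc2 (-0.066), Cd4 (-0.039) and Cd3g (0.016), and leaving out both arrays numbered 1 turned Plcg1 (-0.065) and Cd4 (-0.068). With 1 array left out, Bcl10 ranged from -0.029 to 0.19, Cd3d from -0.13 to 0.21, Cd3g from -0.31 to 0.072, Cd4 from -0.14 to 0.30 and Cd6 from -0.37 to 0.12. Csk ranged from -0.022 to 0.85, Lcp2 from -0.020 to 0.43, Nck1 from -0.42 to 1.37, Nfatc1 from -0.055 to 0.20, Ptprc from -0.049 to 0.28 and Zap70 from -0.077 to 0.28. A further 13 members kept their sign and moved over 1.5 times, among them Txk (0.43 to 1.22), Vav1 (0.22 to 1.32), Fyn (0.062 to 0.72), Grap2 (0.26 to 0.64), Lat (0.17 to 0.46), Malt1 (0.20 to 0.49), Sos1 (0.065 to 0.52), Nfatc2 (0.13 to 0.51) and Plcg1 (0.012 to 0.31). The causes were not tested. At the adjusted threshold the block changed no call of the fraction. Signal over background could not be judged without detection calls.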
